A study of Rattus norvegicus with 8 samples.

Results

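The interleukin-1 family is a set of secreted ligands, their cell-surface receptors and their natural inhibitors, and 9 of its genes were examined in rat calvarial cells after laser irradiation. The genes were chosen by family membership after the irradiation difference of Il1rl1 in these arrays was known, so measured values had a part in the choice. For that reason the irradiation differences of the 9 genes are a description, and their counts at a p threshold stand only beside those of all probes, with nothing read from them. They are 9 of the 34912 gene names on the array, and 14 of its 45598 different rat probes read them. They comprise the ligands Il1a, Il1b, Il18 and Il33, the receptors Il1r1, Il1rl1 and Il1rap, the decoy receptor Il1r2, and the receptor antagonist Il1rn.

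The data are 8 one-color expression arrays, each hybridized with RNA of a single culture. Primary osteoblast-like cells came from the calvariae of Wistar rats aged 3 to 5 days, obtained by enzymatic digestion. They were grown to confluency, and irradiation was done with the medium removed. Osteoinduction medium was added only afterwards, right after irradiation. For every culture it held 10% fetal bovine serum, 50 μg/mL ascorbic acid, 10 mM β-glycerophosphate and 10 nM dexamethasone. Of the 8 cultures, 4 were not irradiated and 4 were exposed to an Er:YAG laser for 60 s at 3.3 J/cm2, and all were collected at 6 h. The cultures of both groups are numbered 1 to 4, and the 2 arrays of a number were treated as a pair. Unless another measure is named, values below are log2 quantile-normalized signals of a single probe, which may be compared between arrays but not between probes. Sums over marker probes are linear signals. The probe with the largest part of a sum is named for its signal and not for the abundance of its transcript. The median processed signal ranged from 56.2 to 72.6 on the non-irradiated arrays and from 56.8 to 84.8 on the irradiated arrays. Non-irradiated arrays lay in slide columns 1 and 3 and irradiated arrays in columns 2 and 4, so slide position and irradiation cannot be told apart. The arrays of a pair also lay side by side, so position and replicate number cannot be told apart either.

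Signaling in this family starts when a ligand brings its specific receptor chain together with an accessory chain, which is IL-1RAP for IL-1 and IL-33 and IL-18RAP for IL-18, and the assembled receptor recruits the adaptor MyD88 and activates NF-κB. The pathway is restrained by the antagonist encoded by Il1rn, which occupies the receptor without signaling, by the decoy receptor IL-1R2, and by a soluble form of the IL-33 receptor ST2 that is made from Il1rl1 beside the membrane form. In bone, interleukin-1 is known for promoting osteoclast formation and for inducing prostaglandins, chemokines and matrix metalloproteinases in osteoblasts.

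Osteoblast markers were looked at first. Of 11 osteoblast markers, 10 were tested, and the probe of the collagen gene Col1a1 read 17.91 to 18.29 over the 8 arrays. Mean signals of the others were 10.87 for Runx2, 5.16 for Sp7, 9.98 for Alpl, 7.97 for Bglap and 17.51 for Col1a2. They were 5.73 for Ibsp, 14.48 for Spp1, 17.45 for Sparc and 5.17 for Dmp1. Signals of different probes cannot be ranked, and these values do not test the label of the cells. The linear signal of the 10 markers, to which the Col1a1 probe added most on average, summed to 678000 to 757000 without irradiation and to 547000 to 739000 with it. The remaining osteoblast marker, Phex, was well above background on 2 of the 8 arrays and was not tested. Replicates also differed in markers of cartilage, muscle and other cells, and these values are given beside the genes they moved with.

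Il1rl1 transcripts are read by 3 separate probes, all on chromosome 9 of build rn4. The array assigns the probe at chr9:39617225-39617284 to transcript variant 1, the probe at chr9:39619275-39620742 to transcript variant 2, and the probe at chr9:39626701-39626760 to the predicted variant X4. The variant 2 probe holds 60 bases but spans 1468 bases of the genome, and so reads across at least 1 splice junction. The first 30 bases of each probe, 5′ to 3′, are shown so that the transcripts can be told apart in the results that follow, and those of the Il1rn probe because it had the widest range among the family.
Il1rl1 variant 1: tttttaattcacctgttgctattcaaatca
Il1rl1 variant 2: tggattgaggttgctctgttctggagagat
Il1rl1 predicted variant X4: tatagagtgagttctagggcaccagagctt
Il1rn: ccagagtatgtgttatttgtgctcatggaa

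Il1rl1 encodes ST2, the specific receptor chain for IL-33. On the variant 1 probe the log2 signal was 14.58, 13.14, 12.70 and 13.17 in non-irradiated replicates 1 to 4, and 15.26, 13.76, 13.17 and 13.55 in irradiated replicates 1 to 4. The irradiated array was the higher of the pair in 4 of 4 pairs, while the groups overlapped because replicate 1 stood above the others in both. The group means were 13.40 ± 0.82 and 13.93 ± 0.91 (SD, n = 4). Within pairs the difference was 0.68, 0.61, 0.48 and 0.38 on the log2 scale, or 1.60-, 1.53-, 1.39- and 1.30-fold. The mean difference was 0.54 with a standard error of 0.11, which is 1.45-fold. This difference was smaller than the SD between the replicates of either group.

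The other Il1rl1 probes are given apart from it, and which of the probes read the soluble or the membrane form was not determined. The variant 2 probe read 5.03, 3.41, 4.003 and 4.61 in non-irradiated replicates 1 to 4, and 4.87, 3.94, 3.51 and 5.15 in irradiated replicates 1 to 4. It was well above background on 6 of 8 arrays, failing on non-irradiated replicate 2 and irradiated replicate 3, and was therefore not tested. In pairs 1 and 4, where both arrays were well above background, it differed by -0.16 and 0.54. Pairs 2 and 3 each hold an array that was not, so no difference is given for them. The X4 probe was bright on every array, at 12.07, 10.06, 9.72 and 11.16 in non-irradiated and 11.63, 11.22, 10.09 and 11.08 in irradiated replicates 1 to 4. Of its pairs 2 were higher and 2 lower, with differences of -0.44, 1.16, 0.38 and -0.08 and a mean of 0.25 (standard error 0.27). That mean rested on pair 2, and without replicate 2 it was -0.05. Whether the irradiation difference itself differed between the 3 probes was not tested.

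**Figure D1:**
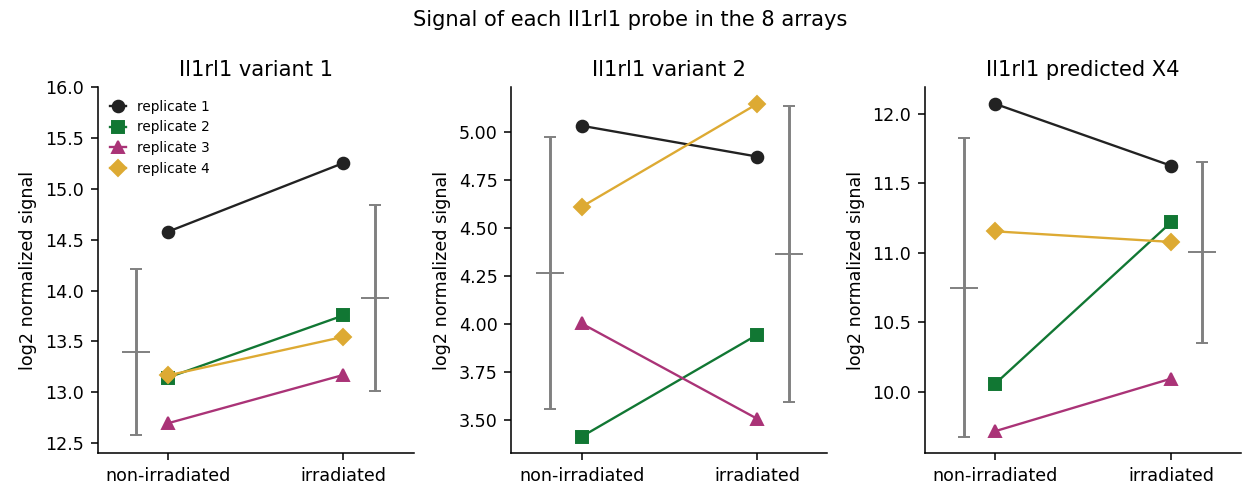
Log2 normalized signal of the 3 Il1rl1 probes in non-irradiated and irradiated cultures. Grey bars give the group mean ± SD (n = 4), and the lines, each joining the arrays of 1 replicate number, all rise for variant 1, by 0.38 to 0.68, whereas 2 rise and 2 fall for predicted variant X4, and variant 2 was well above background on 6 of 8 arrays.

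Il1rap encodes the accessory chain that the receptors for IL-1 and IL-33 share. Its variant 1 probe (chr11:76113640-76113699) read 7.01, 7.36, 6.99 and 7.69 without and 7.35, 6.85, 7.02 and 7.77 with irradiation, with a mean difference of -0.02 (standard error 0.16). That mean was 0.15 without replicate 2 and -0.14 without replicate 1. The variant 2 probe (chr11:76092261-76092320) was dim, at 4.36, 4.77, 4.10 and 4.59 without and 4.51, 5.14, 4.29 and 5.14 with irradiation. It was higher in 4 of 4 pairs, by 0.15, 0.37, 0.19 and 0.56 (mean 0.31, standard error 0.12), and its groups overlapped. The mean was 0.09 after normexp correction and 0.06 in the deposited log2 values.

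Il1r1, the signaling receptor for IL-1, was read by 3 probes, all well above background on 8 of 8 arrays. The probe nearest the start of the gene (chr9:39462421-39464677) read 6.77, 6.12, 5.96 and 6.00 without and 6.85, 5.96, 5.91 and 5.65 with irradiation. Its mean difference was -0.12 (standard error 0.12), and those of the other 2 probes were -0.24 (standard error 0.24) and -0.37 (standard error 0.25). Each of the 3 means rested on 1 pair. Those of the first 2 probes were -0.04 and 0.05 without replicate 4, and that of the last was -0.07 without replicate 2. Leaving out another number made them larger in size. The first and last were -0.19 and -0.59 without replicate 1, and the second was -0.40 without replicate 2. After normexp correction the 3 means were -0.07, -0.13 and -0.10, and the last was -0.13 in the deposited log2 values. None of the 3 probes moved the same way in all 4 pairs. For the decoy receptor Il1r2 (chr9:39316654-39319494) the values were 7.66, 8.41, 8.23 and 6.26 without and 8.55, 8.23, 8.39 and 7.66 with irradiation. Its mean difference of 0.57 (standard error 0.27) came mainly from pairs 1 and 4, at 0.88 and 1.41, while pairs 2 and 3 differed by -0.18 and 0.16, and it was 0.29 without replicate 4.

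Among the ligands, Il33, whose product is an alarmin released from damaged cells, read 6.32, 6.74, 6.10 and 5.78 without and 6.71, 5.14, 5.51 and 5.35 with irradiation (chr1:233685259-233685318). Pairs differed by 0.39, -1.60, -0.59 and -0.43, which is lower in 3 of 4, so the mean of -0.56 had a standard error of 0.31. The SD of its 4 pair differences, 0.82, was larger than the mean, which was -0.21 without replicate 2, -0.87 without replicate 1, -0.24 after normexp correction and -0.15 in the deposited log2 values. Il18 (chr8:53943005-53943064) was higher in 3 of 4 pairs, from 5.84 to 7.13 over the 8 arrays, with a mean difference of 0.17 (standard error 0.17) that rested on pair 2, at 0.63, and was 0.01 without replicate 2 and 0.30 without replicate 1. Il1a and Il1b, the founding ligands of the family, were not well above background on any of the 8 arrays, so no difference is given for them. With Il33 and Il18 measurable and Il1a and Il1b not, the ligands of ST2 and of the IL-18 receptor were the only ones of the 4 detected.

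The antagonist Il1rn was read by 1 probe placed on 10 spots of each array (chr3:2613130-2613189). It read 12.11, 10.48, 9.42 and 7.66 in non-irradiated replicates 1 to 4, and 12.00, 11.25, 9.18 and 7.98 in irradiated replicates 1 to 4. Both arrays of a number lay close together, while the numbers lay far apart. Pair differences of -0.11, 0.78, -0.24 and 0.32 gave a mean of 0.19 with a standard error of 0.19. The mean was -0.01 without replicate 2, 0.33 without replicate 3 and 0.28 without replicate 1.

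Across the 11 tested probes, 0 had an adjusted p below 0.1 for irradiation (limma with Benjamini-Hochberg adjustment over 26391 probes), and 0 of all probes did, that is 0%. Without adjustment, 670 of all probes had a p below 0.05, and the smallest adjusted p rounded to 1. At an unadjusted p below 0.01, 1 member probe was higher, Il1rl1 variant 1, where 0.227% of all probes were higher at that level. No member was lower at that level, where 0.174% of all probes were. In all 4 pairs, 2 of the 11 probes were higher, beside 3.57% of 26250 probes with a value on every array, and 0 were lower, beside 4.02%. As the same contrast guided the choice of the genes, nothing is read from these counts.

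**Figure D2:**
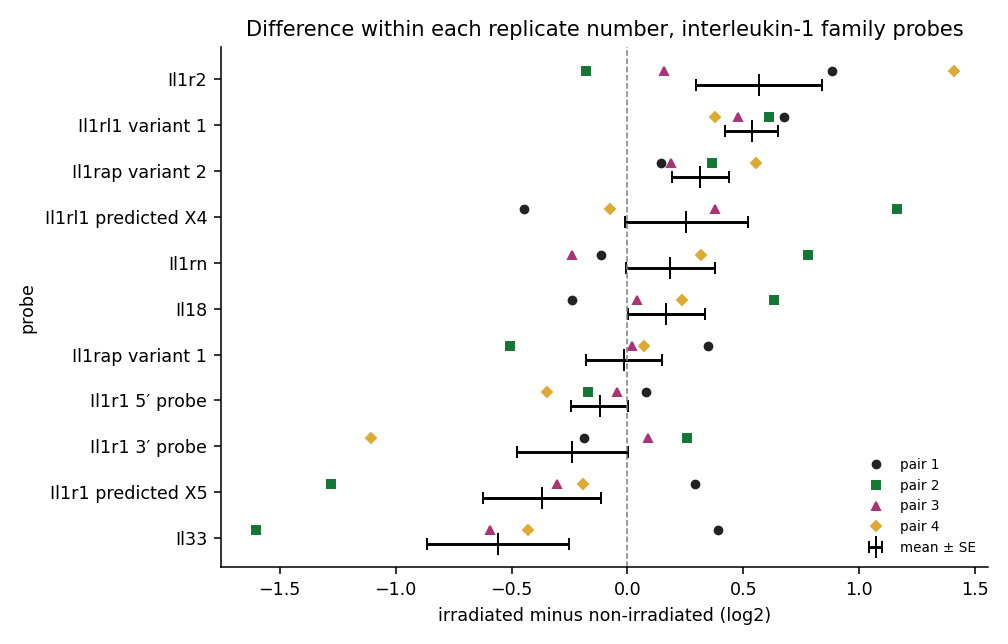
Irradiated minus non-irradiated log2 signal in each pair (colored symbols) and its mean ± standard error (black) for the 11 tested probes of the family. The 4 pairs of Il1rl1 variant 1 lie between 0.38 and 0.68, while those of Il33 run from -1.60 to 0.39 and those of Il1r2 from -0.18 to 1.41.

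Differences between replicate numbers were not themselves used in choosing the genes, and were tested with the F-test of limma on the 3 replicate coefficients. The irradiation difference of Il1rl1 that was known beforehand comes from the same arrays, however, and shares the residual spread of this fit. The replicate call of Il1rl1 variant 1 is therefore not independent of the choice, and the family count is a description. Of the 11 probes, 2 passed at an adjusted p below 0.05, namely Il1rn and Il1rl1 variant 1. Of all probes, 3.31% passed (872 of 26371), and of all genes read by their brightest tested probe, 3.6% passed (742 of 20614). At an unadjusted p below 0.05 there were 7 of the 11 probes and 6724 of all probes. The replicate means of the median probe spanned 0.564.

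Il1rn differed most. Its replicate means were 12.05, 10.86, 9.30 and 7.82 for numbers 1 to 4 (limma F-test, adjusted p = 0.00751), and replicate 1 was the highest and replicate 4 the lowest in both groups. The difference between the highest and lowest culture was 21.9-fold without and 16.2-fold with irradiation. Every gap between neighboring means was larger than the difference between the arrays of any pair, and the range of 4.23 exceeded that of 99.9% of probes. The SD between the spots of the probe on 1 array was 0.0616 to 0.112, which covers measurement within an array and not the spread between cultures. The adjusted p ranged from 0.00157 to 0.0831 over the alternatives, and the call was lost without replicate 1 (0.0806), without replicate 4 (0.0831) and without the filter on dim probes (0.0652).

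For Il1rl1 variant 1 the replicate means were 14.92, 13.45, 12.93 and 13.36 (limma F-test, adjusted p = 0.0135), in a call that is not independent of the choice of the genes. Replicate 1 was the highest in both groups, 3.69-fold above replicate 3 without and 4.24-fold above it with irradiation. Replicates 2 and 4 differed by less than the arrays of a pair. The range of 1.98 exceeded that of 98.2% of probes and was wider than the irradiation difference of 0.54. The call was lost without replicate 1 (adjusted p = 0.294), without replicate 3 (0.0815), without replicate 4 (0.0592) and without the filter on dim probes (0.0639), and the adjusted p ranged from 0.00157 to 0.294 over the alternatives. The irradiation difference itself was 0.49 without replicate 1.

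The X4 probe of Il1rl1 had the same highest and lowest replicate, with means of 11.85, 10.64, 9.91 and 11.12, but did not pass (limma adjusted p = 0.106). Its call changed in the deposited log2 values (limma adjusted p = 0.0481) and without replicate 2 (0.0165), a setting in which 5535 of all probes passed. The means of the Il1r1 probe nearest the start of the gene were 6.81, 6.04, 5.93 and 5.82, again highest in replicate 1 (limma adjusted p = 0.0755). It passed without replicate 2 or after scaling to the 75th percentile. Il1r2 was lowest in replicate 4, at 6.96 against 8.11, 8.32 and 8.31 (limma adjusted p = 0.167). The remaining tested probes, those of Il33, Il18 and Il1rap and the other 2 of Il1r1, had replicate ranges of 0.69 to 0.99 and did not pass, although Il1rap variant 1 passed without replicate 2 (0.0484).

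Markers of other cell types were set beside these values, since RNA from whole cultures does not show whether a low level comes from fewer cells of a type or from less RNA per cell. Of 10 macrophage markers 6 were tested, and 1 differed between replicates, the lysozyme gene Lyz2. Lyz2 had replicate means of 7.83, 6.06, 5.85 and 4.85 (limma adjusted p = 0.0202), so its highest and lowest replicates were those of Il1rn. Tyrobp, with means of 6.56, 6.40, 6.01 and 5.64, and Fcer1g, with means of 6.72, 6.37, 6.18 and 6.11, had the same order without passing (limma adjusted p = 0.068 and 0.161), although Tyrobp passed without replicate 2 (0.025) and after scaling to the 75th percentile (0.0408). The other 3 tested markers had a different order, Itgam with means of 8.59, 7.35, 7.72 and 8.09, Cd68 with means of 7.35, 7.41, 6.73 and 6.79, and Cd14 as given below. Itgam did not pass (limma adjusted p = 0.104), but it did in the deposited log2 values (0.0498). Without replicate 2, 3 of the 6 tested macrophage markers passed. Of the markers that were not tested, Adgre1 was well above background on 6 arrays, Csf1r on 5, Ptprc on 1 and Cd163 on 0. The summed signal of the 6 markers was 1700, 1550, 1510 and 1570 in non-irradiated and 1920, 1280, 1640 and 1780 in irradiated replicates 1 to 4, and on average the largest part came from the Cd14 probe, whose replicate means were 9.65, 9.67, 10.04 and 10.15.

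Some muscle and cartilage genes also differed between replicates. Of 7 muscle markers 5 were tested and 1 was called, the embryonic myosin gene Myh3, with means of 10.93, 8.91, 7.13 and 6.52 (limma adjusted p = 0.00346). Myog, with means of 7.13, 6.18, 5.75 and 5.70, and Ckm, with means of 6.87, 6.48, 5.64 and 5.48, had the same order without passing (limma adjusted p = 0.0721 and 0.154), although both passed without replicate 2 (0.0272 and 0.0394) and Myog in 3 other alternatives. Des, with means of 5.20, 5.39, 5.38 and 5.31, and Acta1, with means of 6.54, 6.78, 6.90 and 6.32, did not have it. The 5 muscle markers, on average with the largest part from the Myh3 probe, summed to 2720, 760, 401 and 304 in non-irradiated and to 2030, 837, 414 and 315 in irradiated replicates 1 to 4. Of 7 chondrocyte markers 5 were tested and 4 were called, Acan, Col2a1, Col9a1 and Comp, each lowest in replicate 1. The type II collagen gene Col2a1 had means of 10.04, 14.98, 15.85 and 15.09 (limma adjusted p = 0.00236). The 5, on average with the largest part from the Col9a1 probe, summed to 7290, 114000, 173000 and 85700 in non-irradiated and 7410, 123000, 183000 and 83700 in irradiated replicates 1 to 4. The cultures of replicate 1, with the highest Il1rl1 variant 1 and Il1rn, had the highest summed muscle and the lowest summed cartilage signal, and the part of cell makeup in the family's replicate differences was not tested. Without replicate 1, 0 probes of any gene passed the replicate test, with 3 numbers left to compare. The call of Acan was lost without replicate 3 too (0.0586), and that of Comp without replicate 3 (0.119), without replicate 4 (0.0529) and without the filter on dim probes (0.0736).

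Cells known to carry ST2 were looked at in the same way. Of 10 mast cell markers 4 were tested and 1 was called, Hdc, with means of 6.55, 5.28, 4.75 and 4.65 (limma adjusted p = 0.0158). The genes Cpa3, Ms4a2, Cma1, Mcpt1 and Mcpt2 were not well above background on any array, the tryptase gene Tpsb2 was on 5, and Fcer1a on 8. The 4 tested markers, on average with the largest part from the Kit probe, summed to 388, 311, 396 and 288 in non-irradiated and 315, 356, 361 and 301 in irradiated replicates 1 to 4. Of 8 T cell and innate lymphoid markers 3 were tested and 0 were called. Endothelial markers gave 2 calls among 5 tested of 7, with Tek at 8.02, 6.10, 5.76 and 6.28 (limma adjusted p = 0.0277) and Kdr at 9.32, 9.31, 7.64 and 7.24 (limma adjusted p = 0.034). Their sum, on average with the largest part from the Vwf probe, was 9830, 13000, 7150 and 7050 in non-irradiated and 8080, 18100, 8700 and 7500 in irradiated replicates 1 to 4. Vwf itself did not pass (limma adjusted p = 0.0995), but it did in the deposited log2 values (0.0496) and with trend and robust estimation (0.0478). Among the osteoblast markers, Alpl at 10.74, 10.34, 10.32 and 8.51 (limma adjusted p = 0.0219) and Bglap at 8.81, 8.02, 8.20 and 6.85 (limma adjusted p = 0.028) were lowest in replicate 4, as Il1rn was. Of the other 8 tested osteoblast markers 0 passed, 3 were lowest in replicate 4 and 4 were highest there, namely Col1a1, Col1a2, Spp1 and Sparc. Ibsp and Dmp1 did pass without replicate 2 (limma adjusted p = 0.0206 and 0.018) and after scaling to the 75th percentile (0.032 and 0.0289). Ibsp also passed with trend and robust estimation (0.0493). The calls of Lyz2, Hdc, Tek, Kdr, Alpl and Bglap were lost without replicate 1, without replicate 3, without replicate 4 and without the filter on dim probes, with adjusted p values from 0.0666 for Lyz2 without replicate 3 to 0.613 for Alpl without replicate 4. That of Hdc was also lost in the deposited log2 values (0.0587).

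**Figure D3:**
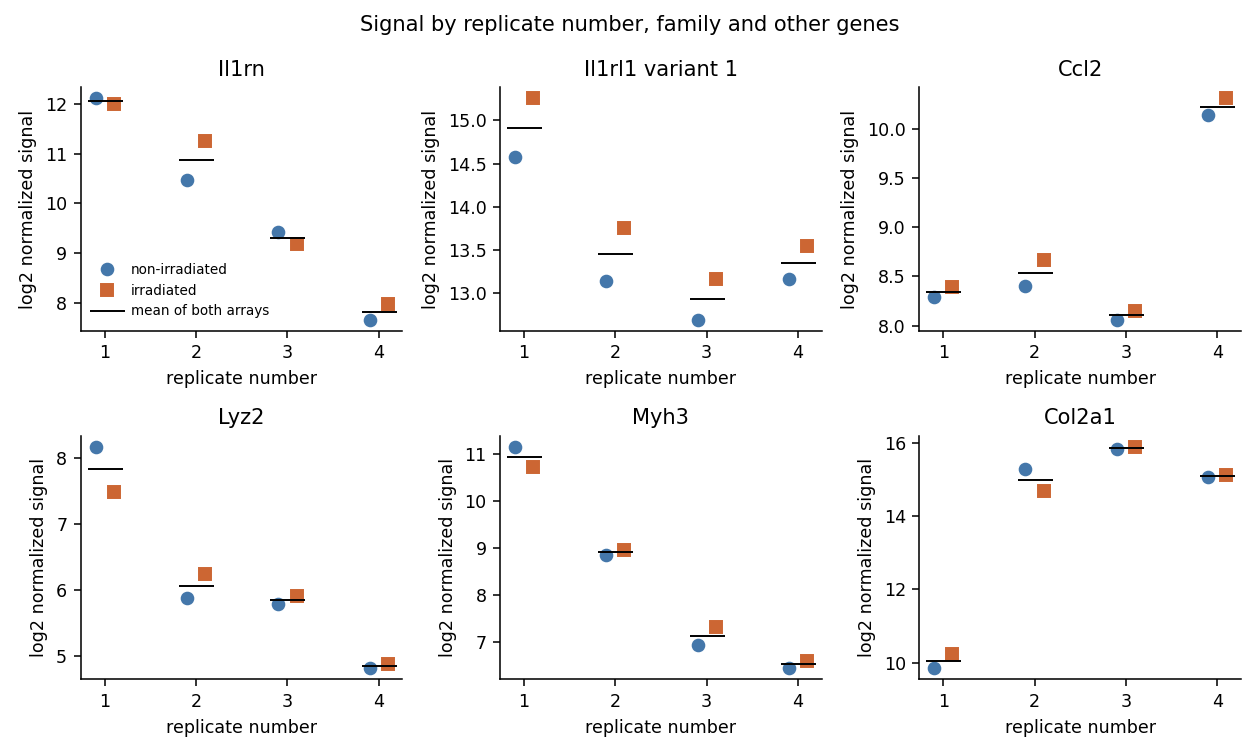
Log2 normalized signal by replicate number for Il1rn, Il1rl1 variant 1, the chemokine gene Ccl2 and the marker genes Lyz2, Myh3 and Col2a1, with circles for non-irradiated arrays, squares for irradiated arrays and a bar for the mean of both. Replicate 1 is the highest for Il1rn, Il1rl1 variant 1, Lyz2 and Myh3 and the lowest for Col2a1, replicate 4 is the highest for Ccl2, and the 2 arrays of each number of Il1rn lie within 0.78 of each other.

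The receptor genes Il1r1, Il1r2 and Il1rl1 share a place in the genome that the choice by name did not use, while Il1rap lies on chromosome 11. In the order of the reference annotation (RefSeq, assembly GRCr8), Il1r2, Il1r1, Il1rl2, Il1rl1, Il18r1 and Il18rap follow one another on 1 chromosome, with the histone gene H3f3al3 as the only other protein-coding gene among them. On the array's build rn4 they lie within chr9:39316654-39697401, a stretch of 381 kb with 15 probes, of which 9 were tested. Il1rl2, the receptor for IL-36, is the neighbor of Il1rl1 on one side. It read 5.03, 3.14, 3.76 and 3.69 without and 5.34, 4.09, 4.14 and 4.27 with irradiation. It was well above background on 4 irradiated arrays and on 1 non-irradiated array, that of replicate 1, so it was tested only through the group in which it was higher. A difference measured on both sides is had in pair 1 alone, at 0.31.

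The neighbor on the other side, Il18r1, encodes the specific chain of the IL-18 receptor. It read 4.65, 4.39, 4.80 and 4.84 without and 4.92, 4.54, 5.41 and 5.47 with irradiation, and was higher in 4 of 4 pairs (mean 0.42, standard error 0.13), as 3.57% of all probes were. It was well above background on 8 of 8 arrays but dim, and after normexp correction its difference was 0.17, whereas that of Il1rl1 variant 1 was 0.56. Il18rap was not tested. Between replicates nothing is read for Il1rl2, since its means for replicates 2 to 4 each include an array not well above background. Il18r1 did not pass, with means of 4.79, 4.47, 5.10 and 5.15 (limma adjusted p = 0.17).

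**Figure D4:**
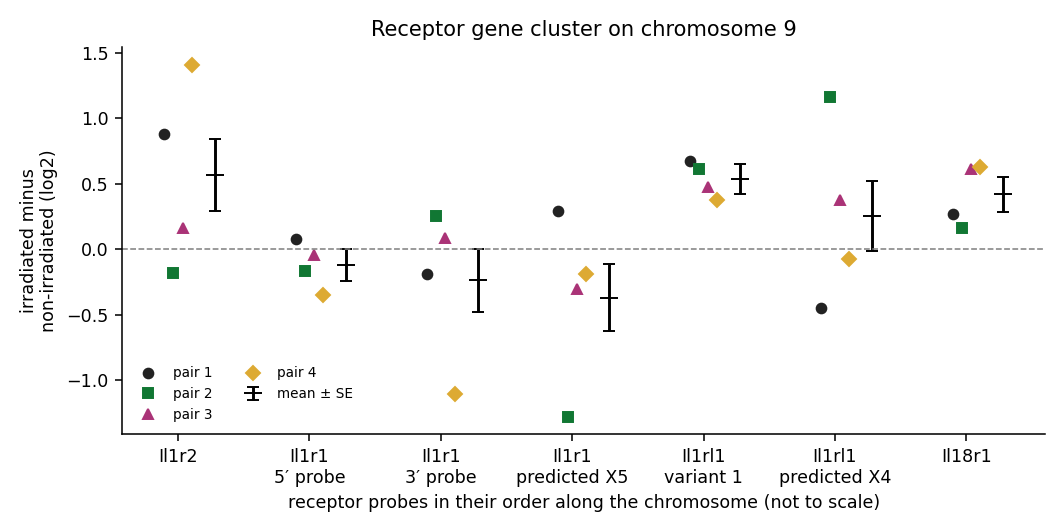
Irradiated minus non-irradiated log2 signal of receptor probes of the chromosome 9 cluster, in their order along the chromosome and not to scale, with symbols for the 4 pairs and black bars for the mean ± standard error. All 4 pairs lie above 0 for Il1rl1 variant 1 and Il18r1, with means of 0.54 and 0.42, and on both sides of 0 for the others, and Il1rl2 is left out because only 1 of its 4 non-irradiated arrays was well above background.

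Further genes of the pathway were taken from lists. Of 6 other receptors of the family 3 were tested, Il1rl2 and Il18r1 as given above and the inhibitory receptor Sigirr. Of 5 other ligands and antagonists only Il36rn was tested, and Il36a, Il36b and Il36g were not well above background on any array. Of 11 genes for the processing and release of the ligands, 5 were tested, with 0 called for irradiation or between replicates. The inflammasome genes Nlrp3, Nlrc4 and Aim2 and the protease gene Casp1 were not tested, whereas the pore-forming gene Gsdmd read 13.26 to 14.13 and passed the replicate test without replicate 2 (0.0379).

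Genes of signaling close to the receptors, from Myd88 to Ikbkb, made up a list of 17. All 17 were tested, 12 higher and 5 lower, with a median difference of 0.05. Without replicate 2, however, there were 4 higher and 13 lower, with a median of -0.05. Without replicate 1 there were 14 higher and 3 lower, with a median of 0.145. Of the 17, 0 were called for irradiation or between replicates. The adaptor Myd88 read 13.84, 13.38, 13.49 and 13.14 without and 13.47, 13.79, 13.55 and 13.12 with irradiation. Over the 20633 genes tested, 10465 were higher and the median difference was 0.00192. The median replicate range of the 17 genes was 0.363, beside 0.564 over all probes.

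Genes known to respond to interleukin-1 in mesenchymal cells included Cxcl1, Cxcl3 and Mmp3, which were picked earlier from these same arrays, so their direction is not independent evidence. Of 25 listed, 17 were tested, 7 higher and 10 lower, and 0 were called for irradiation. Without replicate 1 there were 9 higher and 8 lower, without replicate 3 there were 10 and 7, and without replicate 4 there were 8 and 9. The chemokine genes Cxcl1 and Ccl2 and the stromelysin gene Mmp3 were higher in 4 of 4 pairs, with mean differences of 0.76, 0.16 and 0.57 (standard errors 0.12, 0.11 and 0.18). That of Mmp3 came mostly from pair 1, at 1.17, and was 0.37 without replicate 1 and 0.33 after normexp correction. The chemokine gene Cxcl3 was dim and not well above background on non-irradiated replicate 3, so it was tested only through the irradiated arrays. Its differences in pairs 1, 2 and 4 were 1.747, 1.097 and 1.107. The mean over all 4 pairs, which includes non-irradiated replicate 3, was 1.47. That mean was 0.52 after normexp correction and 0.86 in the deposited log2 values. The prostaglandin synthase gene Ptges was lower in 4 of 4 pairs, with a difference of -0.15 (standard error 0.12). Il6, Cxcl2 and Csf2 were not well above background on any array. Between replicates, 1 of the 17 was called, and 6 were without replicate 2, a setting in which 5535 of all probes passed. The 1 called was Ccl2, with means of 8.34, 8.54, 8.11 and 10.22 (limma adjusted p = 0.00937), highest in replicate 4, where Il1rn was lowest. The call was lost without replicate 1 (0.07), without replicate 3 (0.0586) and without replicate 4 (0.537), and its adjusted p ranged from 0.00178 to 0.537 over the alternatives.

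**Figure D5:**
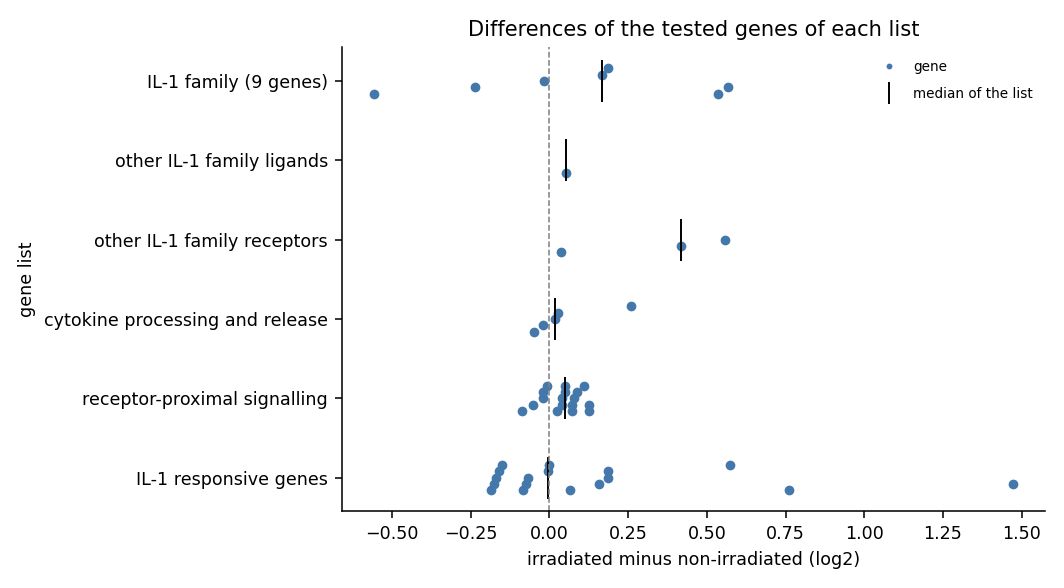
Irradiated minus non-irradiated log2 signal of each tested gene (dots, read by its brightest tested probe) in 6 gene lists, with the median of each list as a black bar. The 17 signaling genes have a median of 0.05, which was -0.05 without replicate 2 and 0.145 without replicate 1. The dots of Cxcl3, Nos2 and Il1rl2 include arrays that were not well above background.

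The genes whose pattern over the 8 arrays was most like that of Il1rl1 variant 1 were sought among 5525 genes by Pearson's r. The arrays of a pair come from 1 replicate number and so are not independent, and no p is given. The highest values were 0.979 for Adamtsl5, 0.974 for the sphingosine-1-phosphate receptor gene S1pr3, 0.974 for Ube2ql1, 0.973 for Cyth3 and 0.972 for the growth factor gene Fgf7. Adamtsl5 was dim, at 4.57 to 5.81, and its irradiation difference of 0.32 was 0.11 after normexp correction and 0.11 in the deposited values. S1pr3, for example, read 14.42, 13.05, 12.78 and 12.99 without and 14.56, 13.37, 13.09 and 13.13 with irradiation, highest in replicate 1. The most opposite genes were Fads1 at -0.985, Pcdh15 at -0.979, Npepl1 at -0.973, Efcab1 at -0.973 and Lipm at -0.972. Within the family, r with Il1rl1 variant 1 was highest for the Il1r1 probe nearest the start of the gene, followed by 0.823 for its own X4 probe and 0.714 for Il1rn, and it was 0.357 for Il33.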

How the data were processed

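Total RNA (200 ng) from 8 cultures, 4 non-irradiated and 4 irradiated, was hybridized after Cy3 labeling, with 1 array per culture. The deposited scanner files hold the intensity of every spot from Feature Extraction 11.0.1.1 (per the submitters' notes), background-subtracted and detrended within the array, with no normalization across arrays. A deposited table of quantile-normalized log2 values, made by the authors from the same arrays, served as an alternative. How those rows were background-corrected and averaged is not given in the sources used here. Probe positions are those of the array design (rn4). No genome of that build was used, so exon and UTR annotation is not given, and gene names are those of the array, with 21184 of 45598 probes matched to current symbols by transcript accession.

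Quantile normalization was applied to the log2 of the processed signal over 58717 spots of rat probes, outlying spots were left out, and repeated spots of 1 probe were averaged, each probe of a gene being analyzed separately. Testing required that more than 50% of a probe's spots be well above background on all arrays of 1 group or of both. This held for 26404 probes, of which 26391 could be fitted. For 26371 of these the replicate coefficients could be tested. The sample titles gave both the group and the replicate number. Irradiation and replicate number were fitted together in limma 3.58.1 (lmFit, eBayes; R 4.3.3), with two-sided tests and Benjamini-Hochberg adjustment, and the code was tested on simulated data. Whether the 4 numbers of a group are separate animals is given only by the animal numbers in the scanner file names, which are shared by both arrays of a number. These names are also the source of the pairing. Deviations from the group means were correlated within pairs at 0.608, 0.0542, 0.571 and 0.749 for numbers 1 to 4 across 26250 probes, which are not independent replicates. For irradiated replicate 2 the correlation with non-irradiated replicate 1, 0.439, exceeded that with its own number. The slide was not fitted, since all arrays were on 1 slide and in 1 scan. The number of arrays limits the precision.

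The text names every probe of the 9 genes, the 5 genes most like and 5 most opposite to the brightest Il1rl1 probe, among probes well above background on all 8 arrays with a range of at least 1, and from each list up to 3 genes each way with the largest irradiation difference of 1 sign in all 4 pairs and up to 3 with the largest replicate range, as far as they add to the account. Genes named beside these were chosen after their values were seen, or to state which listed genes were not detected. The members and lists were chosen with earlier results of these data known. The alternatives replaced quantile normalization by the 75th percentile of each array, the processed signal by normexp-corrected signal (offset 50) or the deposited log2 values, and the filter by none or by 1 over all 8 arrays. They also kept outlying spots, used trend and robust options in eBayes, dropped the block or made it random, and left out each replicate number.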

Additional observations from a re-analysis of the deposited data

How the results depend on the processing

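With irradiation, 0 probes had an adjusted p below 0.1 under any alternative run (limma), and the smallest adjusted p was lowest, at 0.212, with a random replicate block. The count of family probes at an unadjusted p below 0.01 was 1, and it was 0 with no replicate block, 0 with a random replicate block, and between 0 and 1 when each replicate number was left out. Nothing is read from this count, since the same contrast guided the choice of the genes. The difference of Il1rl1 variant 1 lay between 0.49 and 0.59 under every alternative. Leaving out a replicate number moved the difference of its X4 probe to between -0.05 and 0.49. Leaving out a replicate number cannot move a mean difference by as much as the SD of its pair differences. Changing the filter, the estimation options or the replicate block leaves the difference of a family probe unchanged. Such settings therefore cannot show whether the differences are stable against that SD. Among the settings that change the signals, 10 of 11 family differences moved by less than that SD after normexp correction. In the deposited values 9 of 10 did, where 1 Il1r1 probe had no value of its own. After scaling to the 75th percentile 11 of 11 did, and 11 of 11 with outlying spots kept. The exceptions were those of Il1rap variant 2, and a change of sign was not counted. Among other named genes, 7 differences moved by more than that SD, all toward 0 and all of dim probes after normexp correction or in the deposited values.

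The replicate test depended more on the settings. The count of probes passing was 872 with the main settings. It was 1530 after normexp correction, 1733 in the deposited values and 1419 with trend and robust estimation. Without the filter on dim probes, where 45585 probes were tested, it was 84. Leaving out a replicate number also leaves fewer arrays. The count was then 0 without replicate 1, 5535 without replicate 2, 111 without replicate 3 and 104 without replicate 4. Only leaving out replicate 2, the pair with the lowest within-pair correlation (0.0542), raised it. Each count is a separate total and not a share of the 872. The family count of 2 became 0 without the filter. It was 0, 5, 1 and 0 when replicates 1 to 4 were left out in turn. The cause of these changes was not tested. Dim probes near background, such as Il1rl1 variant 2, Il1rap variant 2 and Il1rl2, limit what these arrays show.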

Other observations

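The vascular adhesion gene Vcam1, a known target of interleukin-1, had replicate means of 7.71, 7.90, 6.85 and 6.04 (limma adjusted p = 0.0666), and the collagenase gene Mmp13 had means of 7.90, 6.75, 7.50 and 5.77 (limma adjusted p = 0.208). Both were lowest in replicate 4, where Il1rn was lowest too, and neither passed the test, although Vcam1 passed in 4 of the alternatives and Mmp13 in 1, and both passed without replicate 2 (0.02 and 0.0394).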
